A study of Mus musculus with 2 samples.

Results

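The RING finger (Rnf) and tripartite motif (Trim) genes were followed in transformed mouse bone marrow progenitors with and without removal of Cebpa. Members were all rows of the deposited gene table with a single symbol that begins with Rnf or Trim and a digit. That choice by name gave 144 of 23309 rows, 78 Rnf and 66 Trim genes. The rule reads names and no measured value, although the families were taken up with earlier results of these data known. Ubiquitin ligases attach ubiquitin to target proteins. A ubiquitin-activating enzyme (E1) charges a conjugating enzyme (E2), and the ligase (E3) brings the charged E2 to its target. The RING finger is a zinc-binding fold that docks the E2, and Rnf genes share this fold while the rest of their proteins differ widely. Most Trim proteins carry the RING with B-box and coiled-coil regions. Many Trim genes act in innate immunity or respond to interferon, a signal that blood cells make and sense.

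The cells were lineage-depleted bone marrow cells of Cebpaf/f;CreER mice, transduced with the retroviruses MIGR1-HA-Hoxa9 and MIGR1-Flag-Meis1 and cultured with IL3. One group received EtOH, the vehicle, and the other 5 nM 4OHT, which activates CreER, both for 72 hours. Floxed alleles, CreER and both viruses were common to the 2 groups. The age and number of the animals, any pooling of animals and the promoter that drives CreER were not given in the sources used here. Each group is 1 sample that joins 2 replicates. The table therefore holds a single value per gene and condition, without a measure of replicate spread. Its columns name no unit. The values are read here as FPKM (fragments per kilobase of transcript, scaled to library size), judged from column names that match those Cuffdiff writes. Rises and falls are those with status OK and a q under 0.05 in the authors' deposited table. Cre activity and 4OHT itself cannot be told apart from loss of Cebpa in this design. Cebpa fell from 109 to 42.8 FPKM, to 39.2% of its vehicle level (q = 0.00165 in the authors' deposited table).

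The cell identity was checked on marker lists. All 10 matched progenitor genes were measured, with at least 11.7 FPKM in each condition. Of these Cd34, Kit and Gata2 were higher after 4OHT and Elane and Cebpa lower. The B cell list summed to 1.54 and 2.75 FPKM, with 1 gene higher and Ms4a1 and Pax5 at 0, and the T and NK cell list to 3.68 and 3.79 FPKM. Over all 10 listed neutrophil genes the sum was 83.8 FPKM with vehicle and 31.0 FPKM after 4OHT, with 4 genes lower and Retnlg at 0. Over the 10 matched monocyte genes it was 1001 and 614 FPKM, with 6 lower and 1 higher. Over the 10 mast cell and basophil genes it was 730 and 1192 FPKM, with 3 higher and Mcpt1, Mcpt2 and Mcpt4 at 0. The 3 were Cpa3, Kit and Gata2, and Kit and Gata2 are also in the progenitor list. Most of the sum was Cpa3, with 562 FPKM with vehicle and 975 FPKM after 4OHT. Of the 6 measured genes of this list, 4 had the higher value after 4OHT. Mcpt8 (0.998-fold) and Prss34 (20.5 and 16.8 FPKM) had the lower value, without passing. Over the 7 megakaryocyte genes the sum was 55.0 and 105 FPKM, with 2 higher, Itga2b and Gp5. Most of this sum was Itga2b, with 40.3 FPKM with vehicle and 88.8 FPKM after 4OHT. The value after 4OHT was higher in 4 of the 5 measured genes of this list. Pf4 (0.956-fold) and the low Ppbp (0.762 and 0.425 FPKM) had the lower value, without passing. Of the 6 stroma genes 2 were measured, with 1 higher, and the list summed to 221 and 202 FPKM. The markers called here moved with the same contrast as the ligases below, and their part in those values was not tested. In bulk RNA, fewer cells of a type and less RNA per cell cannot be told apart.

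Of the 78 Rnf genes 3 rose after 4OHT and none fell, and of the 66 Trim genes none passed the test. The 3 were Rnf150, Rnf144a and Rnf180, all low in vehicle cells. The authors tested 61 Rnf and 38 Trim genes. Over all 11953 tested rows, 5.91% passed in either direction, 2.8% higher and 3.11% lower, so the Rnf count of 3 in 61 lay near that background. At an unadjusted p under 0.05 there were 5 Rnf genes, all higher, and 7 Trim genes, 6 higher and 1 lower. That is 8.20% and 18.4% of the tested genes of each family, against 12.3% of all tested rows. At a q under 0.01 there were 2 Rnf genes and no Trim gene, against 3.84%. Among rows of at least 1 FPKM in the higher condition and above 0 in both, 3.49% were at least 1.5-fold higher and 3.95% lower. Either way it was 7.44%, and 3 Rnf genes and 1 Trim gene were that much higher and none lower. Among them Rnf150, Rnf144a and Trim7 reached 1 FPKM only after 4OHT, so the minimum itself favoured a higher value there. A value of at least 1 FPKM in the higher condition was reached by 59 Rnf genes and 34 Trim genes, and these are called measured. That is 75.6% and 51.5% of the families, where 47.1% of all rows were measured.

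**Figure D1:**
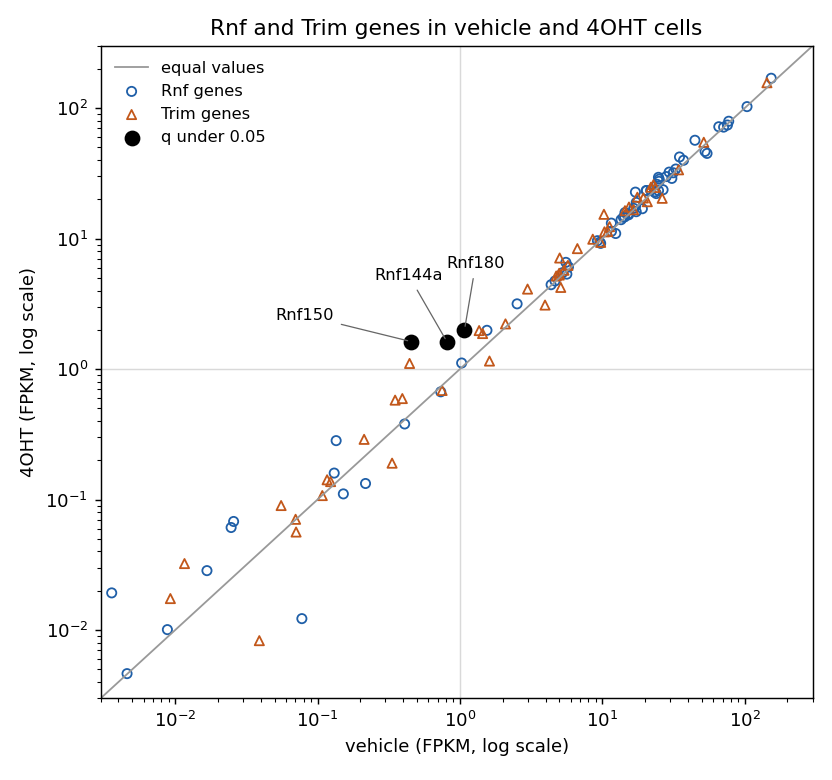
Level of each Rnf gene (circles) and Trim gene (triangles) in vehicle cells (horizontal axis) and after 4OHT (vertical axis), in FPKM on log scales, for the 120 members above 0 in both conditions. Most points lie along the line of equal values, and the 3 genes with q under 0.05 (filled) lie above it between 0.455 and 2.00 FPKM.

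Levels spanned a wide range within each family. Rnf130, a membrane ligase of the Goliath type, was the highest Rnf gene with 154 FPKM with vehicle and 170 FPKM after 4OHT. Rnf7, the RING partner of cullin 5, followed with 104 and 103 FPKM, and Rnf187, a coactivator of AP-1, with 77.4 and 79.4 FPKM. Trim28, the corepressor of KRAB zinc finger proteins, was the highest Trim gene with 144 and 157 FPKM, ahead of Trim35 (51.7 and 54.8 FPKM) and Trim27 (34.4 and 33.7 FPKM). The median measured Rnf gene stood at 17.3 FPKM with vehicle and 18.9 FPKM after 4OHT. The median measured Trim gene was lower, at 10.02 and 10.6 FPKM, and the median over all measured rows was 15.6 and 15.4 FPKM. Both conditions listed 5 Rnf genes at 0 (Rnf112, Rnf133, Rnf148, Rnf182 and Rnf222) and 12 Trim genes at 0, among them Trim54 and Trim55, which act in muscle, and Trim71, a ligase of early embryos. A further 14 Rnf and 20 Trim genes stayed below 1 FPKM in both conditions with a value above 0 in at least 1 of them, and 7 of these were listed at 0 in the other.

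Median differences between the conditions were small in both families, while fewer Trim genes than rows overall lay close to equality. The median log2((4OHT + 1)/(vehicle + 1)), a ratio of FPKM that understates the change of low genes, was 0.05 over measured Rnf genes and 0.10 over measured Trim genes, beside 0.00 over all 10989 measured rows. The value after 4OHT was the higher one in 41 of 59 Rnf genes (69.5%) and 27 of 34 Trim genes (79.4%), beside 50.1% of all measured rows. Most of these differences were slight, with 52 Rnf genes and 24 Trim genes within 1.25-fold of equality, 88.1% and 70.6%, beside 82.6% of all measured rows. The quartiles of the log2 ratios ran from -0.03 to 0.13 for Rnf genes and from 0.05 to 0.18 for Trim genes, beside -0.10 to 0.10 for all measured rows. No test of either family as a whole was made, since 1 sample per condition allows none.

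**Figure D2:**
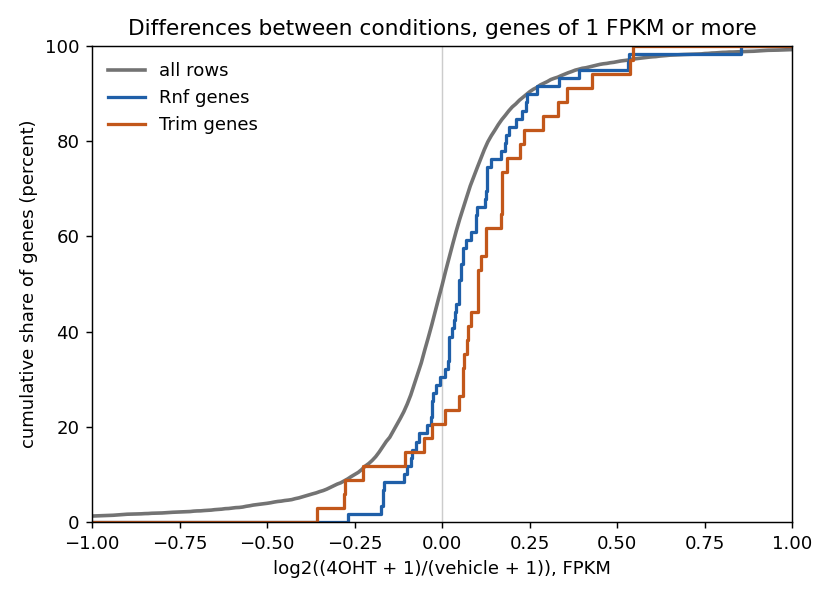
Cumulative share of genes (percent) against the log2 ratio of 4OHT to vehicle with a pseudocount of 1 FPKM, for the 59 measured Rnf genes, the 34 measured Trim genes and all 10989 measured rows. The Rnf and Trim curves cross 50% at 0.05 and 0.10, to the right of the curve of all rows, and both stay between -0.36 and 0.85.

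Rnf150 belongs to the ligases with a protease-associated domain and a membrane-spanning segment, which sit in internal membranes or at the cell surface. It stood at 0.455 FPKM with vehicle and 1.63 FPKM after 4OHT, a 3.58-fold rise (q = 0.00165 in the authors' deposited table). The locus of Rnf150 lies on chromosome 8 of mm9 at 85387255 to 85615170 and overlaps no other row. This was the largest log2 ratio of any measured member (0.85).

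Rnf144a is a RING-between-RING ligase, a type that takes ubiquitin onto itself before passing it on, and is known for acting on the DNA repair kinase DNA-PKcs. Its level was 0.812 FPKM with vehicle and 1.62 FPKM after 4OHT. That is a 2.00-fold rise, with q = 0.00698 in the authors' deposited table (chromosome 12, 26991663 to 27100121). Rnf180, a ligase anchored in the membrane by its tail, was at 1.08 FPKM with vehicle and 2.00 FPKM after 4OHT, a 1.86-fold rise with q = 0.0192 there (chromosome 13, 105937574 to 106083094). Neither locus overlaps another row. All 3 genes that rose reached no more than 2.00 FPKM. Among tested rows from 1 to 5 FPKM, 53.7% of those with at least a 1.5-fold difference passed (197 of 367), beside 85.6% from 5 to 20 FPKM (190 of 222).

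The sequences before the starts of the genes that rose are shown because these genes moved the same way. RefSeq promoters (build GRCm38.p6) matched 110 of the 144 members by symbol, among them Rnf144a and Rnf180 but not Rnf150. They were searched on both strands for TTNNGCAA, a form of the site bound by C/EBP proteins, and for GAAA, any 2 bases and GAAA again, the core of the interferon response element. Over all 32851 promoters, each from 250 bases before to 50 after the start, 10.8% held the first and 3.44% the second. The 250 bases before the start of Rnf144a (chr12:26415263-26415512, minus strand) and before 2 starts of Rnf180 (the upstream one at chr13:105294486-105294735, the other at chr13:105293015-105293264, minus strand) are given 5′ to 3′, with a match in capitals. The sole match in these 3 stretches is TTGCTCAA before the downstream start of Rnf180, which reads as the C/EBP form on the opposite strand.
Rnf144a: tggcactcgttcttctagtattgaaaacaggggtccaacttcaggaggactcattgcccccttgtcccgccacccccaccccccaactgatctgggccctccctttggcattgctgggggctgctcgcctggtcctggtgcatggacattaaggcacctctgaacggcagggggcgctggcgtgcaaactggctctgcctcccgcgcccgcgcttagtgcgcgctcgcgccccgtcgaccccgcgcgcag
Rnf180, upstream start: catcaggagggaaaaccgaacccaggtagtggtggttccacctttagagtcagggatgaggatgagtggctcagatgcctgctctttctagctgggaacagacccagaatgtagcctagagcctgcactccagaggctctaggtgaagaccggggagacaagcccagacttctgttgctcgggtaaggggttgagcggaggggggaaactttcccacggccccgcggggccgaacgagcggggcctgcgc
Rnf180, downstream start: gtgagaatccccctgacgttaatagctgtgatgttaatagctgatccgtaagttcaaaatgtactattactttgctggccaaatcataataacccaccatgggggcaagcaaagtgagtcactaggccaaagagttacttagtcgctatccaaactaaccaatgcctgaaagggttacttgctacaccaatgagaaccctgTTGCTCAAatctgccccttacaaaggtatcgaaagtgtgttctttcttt
Of these stretches 65.6%, 60.4% and 42.4% of bases were G or C. Of 78 Rnf promoters 6 held TTNNGCAA and 4 the interferon form, and of 64 Trim promoters 9 and 9. Counted by gene, it was 6 and 4 of 60 Rnf genes and 9 and 8 of 50 Trim genes. A match describes letters and shows no binding.

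Other measured members of the families of these ligases did not pass. All 6 measured genes of the protease-associated membrane group had a higher value after 4OHT, and 1 of them, Rnf150, rose. Rnf13, a ligase of endosomes and lysosomes, had 44.8 FPKM with vehicle and 56.8 FPKM after 4OHT (q = 0.396 in the authors' deposited table), Rnf167 24.8 and 29.5 FPKM, and Rnf149 25.1 and 28.6 FPKM. The group's median log2 ratio was 0.21. Of 7 measured RING-between-RING genes 1 rose, Rnf144a, and the median was -0.03. Rnf19b, a ligase of natural killer cells and macrophages, had 26.8 and 23.7 FPKM, Rnf217 19.1 and 17.0 FPKM, and Rnf14 24.9 and 23.3 FPKM, each lower after 4OHT without passing. The near copy Rnf144b was at 0.0257 and 0.0680 FPKM and was not tested.

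**Figure D3:**
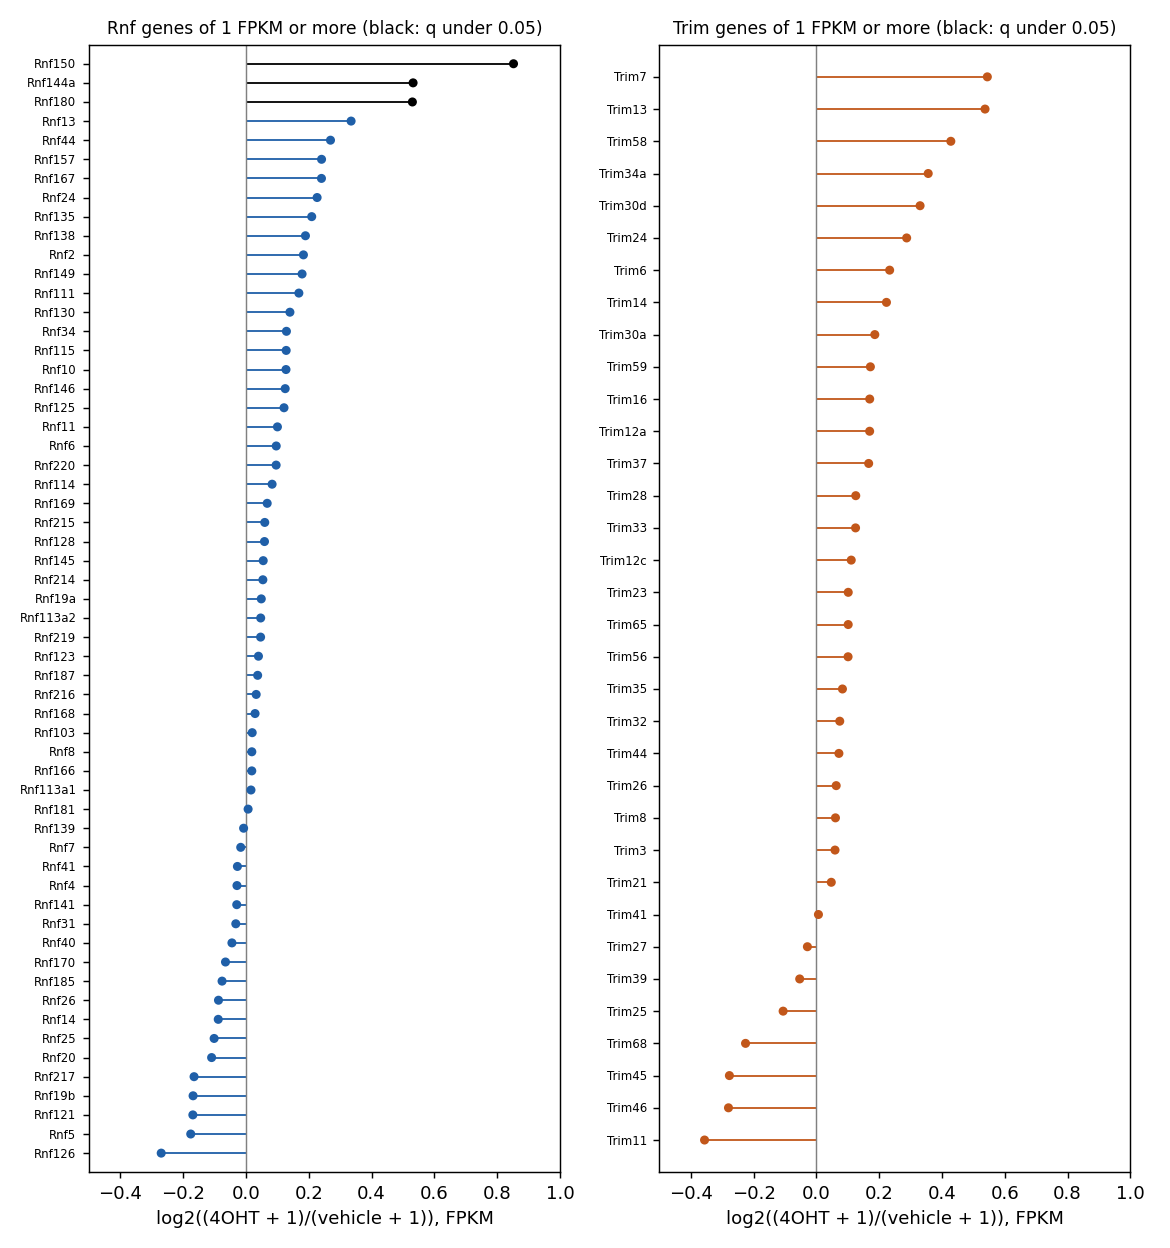
Log2 ratio of 4OHT to vehicle (pseudocount of 1 FPKM) for the measured Rnf genes (left, 1 not drawn) and Trim genes (right), ordered by size, with genes of q under 0.05 in black. Rnf150, Rnf144a and Rnf180 are at the top of the left panel with 0.85, 0.53 and 0.53, and the right panel runs from Trim11 at -0.36 to Trim7 at 0.54 with no black point.

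Of 7 ligases that mark histones or act at DNA breaks none passed, and the median log2 ratio was 0.03. Rnf2, the Polycomb ligase for histone H2A, had 20.5 FPKM with vehicle and 23.4 FPKM after 4OHT. Rnf20 and Rnf40, which form the ligase for histone H2B, had 24.0 and 22.2 FPKM and 23.6 and 22.8 FPKM. Rnf8 and Rnf168, which act in turn on chromatin beside DNA breaks, had 15.2 and 15.4 FPKM and 14.4 and 14.7 FPKM. Rnf169, a reader of the Rnf168 mark, had 5.74 and 6.07 FPKM, and Rnf138, which acts in resection of broken ends, 20.4 and 23.3 FPKM. The largest of these differences was that of Rnf138, 1.15-fold.

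The ligases directed by SUMO or by poly(ADP-ribose) held no called gene either. Rnf4, which targets SUMO chains, had 75.8 FPKM with vehicle and 74.3 FPKM after 4OHT. Its relative Rnf111 had 11.6 and 13.2 FPKM, and Rnf146, which reads poly(ADP-ribose), 14.4 and 15.8 FPKM. In the group of the endoplasmic reticulum and related membranes, none of 8 measured genes passed and 6 had the lower value after 4OHT, with a median of -0.07. Rnf5, a ligase of protein quality control, had 52.8 and 46.6 FPKM, and Rnf121 12.4 and 10.9 FPKM. Rnf26, which acts on the sensor STING, had 30.8 and 29.0 FPKM, and Rnf185 9.75 and 9.20 FPKM.

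Of 9 measured Rnf genes with a part in innate immunity, none passed and the median was 0.08. Rnf31, the catalytic subunit of the linear ubiquitin ligase, had 9.63 FPKM with vehicle and 9.39 FPKM after 4OHT. Rnf135, which acts on the RNA sensor RIG-I, had 5.56 and 6.58 FPKM, and Rnf125, which acts on it too, 17.3 and 18.9 FPKM. Rnf34 (25.1 and 27.5 FPKM), Rnf114 (28.2 and 29.9 FPKM), Rnf115 (29.5 and 32.4 FPKM), Rnf166 (31.6 and 32.0 FPKM), Rnf216 (16.7 and 17.1 FPKM) and Rnf41 (11.6 and 11.4 FPKM) also differed little. In 7 of the 9 the value after 4OHT was the higher one.

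Of the 21 measured Rnf genes in no list 1 rose, Rnf180. Rnf126, which works with Bag6 on misplaced proteins, had 54.5 and 45.0 FPKM (q = 0.588 in the authors' deposited table), the lowest log2 ratio of the family (-0.27).

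In the Trim family, 2 genes came close to the threshold. Trim7, whose product binds glycogenin, had 0.443 FPKM with vehicle and 1.10 FPKM after 4OHT, 2.49-fold higher with q = 0.0531 in the authors' deposited table (chromosome 11, 48639640 to 48663697). Trim13, a ligase anchored in the endoplasmic reticulum, had 10.3 and 15.4 FPKM, 1.49-fold higher with q = 0.0648 there (chromosome 14, 62217063 to 62301210). The Trim13 row shares its locus with Dleu2, Kcnrg, Mir15a and Mir16-1, and since strand is not stated for these libraries, reads of overlapping genes cannot be told apart. Both would pass at a q under 0.10, which 7.08% of tested rows did.

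Trim58, a ligase that acts on dynein in red cell precursors, had 5.03 FPKM with vehicle and 7.11 FPKM after 4OHT (q = 0.183 in the authors' deposited table). The other red cell gene, Trim10, was at 0.00740 and 0 FPKM and was not tested. Of the erythroid marker list, 7 of 10 matched, 2 genes were measured and none passed, with Slc4a1 at 0. The list summed to 98.6 and 94.3 FPKM, nearly all of it Tfrc, the transferrin receptor (97.4 and 92.6 FPKM). Gata1, an erythroid, megakaryocyte and mast cell transcription factor, had 0.609 and 1.23 FPKM (q = 0.0698 in the authors' deposited table). The part of these markers in the Trim58 values was not tested. At the other end Trim11 had 26.4 and 20.4 FPKM (q = 0.271 there), the only Trim gene lower at an unadjusted p under 0.05. Trim46, which orders microtubules in axons, had 1.61 and 1.15 FPKM, Trim45 3.97 and 3.10 FPKM, and Trim68 5.11 and 4.23 FPKM.

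The chromatin-bound Trim genes of the TIF1 type, cofactors that read histones and repress transcription, were measured in 3 of 4 cases. Trim28 is given above. Trim33, known for its part in blood cell differentiation and Smad signalling, had 11.3 FPKM with vehicle and 12.4 FPKM after 4OHT, and Trim24, a cofactor of nuclear receptors, 6.69 and 8.39 FPKM (q = 0.441 in the authors' deposited table). Trim66 was at 0.124 and 0.137 FPKM. None passed, and all 4 values were the higher ones after 4OHT. Of the NHL type, which can bind RNA, Trim32 had 5.39 and 5.73 FPKM and Trim3 2.09 and 2.22 FPKM, and none of the 4 muscle genes listed was measured.

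Interferon-linked and antiviral Trim genes were the largest Trim group. Of 14 matched genes 12 were measured, none passed, and 11 of the 12 had the higher value after 4OHT, with a median log2 ratio of 0.14. Trim25, which acts on RIG-I, was the exception with 20.7 FPKM with vehicle and 19.2 FPKM after 4OHT. Trim14, an adaptor of antiviral signalling, had 17.7 and 20.8 FPKM, Trim21, an antibody receptor of the cytosol, 10.9 and 11.3 FPKM, and Trim56 4.99 and 5.42 FPKM. Trim65 had 4.75 and 5.17 FPKM and Trim26 4.99 and 5.26 FPKM. The general interferon response list, with 8 of 12 genes measured, held 1 lower gene below 1 FPKM, Rsad2, and none higher, and its sums were 34.5 and 34.3 FPKM.

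A run of 9 Trim rows lies on chromosome 7 of mm9 between 111367309 and 111683875, and 6 of these were measured. All 6 had the higher value after 4OHT and none passed. Trim12a had 15.4 FPKM with vehicle and 17.5 FPKM after 4OHT, Trim12c 10.4 and 11.3 FPKM, and Trim30a 8.58 and 9.90 FPKM. Trim34a had 2.99 and 4.11 FPKM (q = 0.367 in the authors' deposited table), Trim30d 1.37 and 1.97 FPKM (q = 0.338 there), and Trim6 1.44 and 1.87 FPKM. The 9 rows summed to 40.7 and 47.3 FPKM, 1.16-fold higher. These genes are related, and some of them are near copies of each other. The sources used here do not say how shared reads were divided. Values in this run may therefore be uncertain and not independent of each other.

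**Figure D4:**
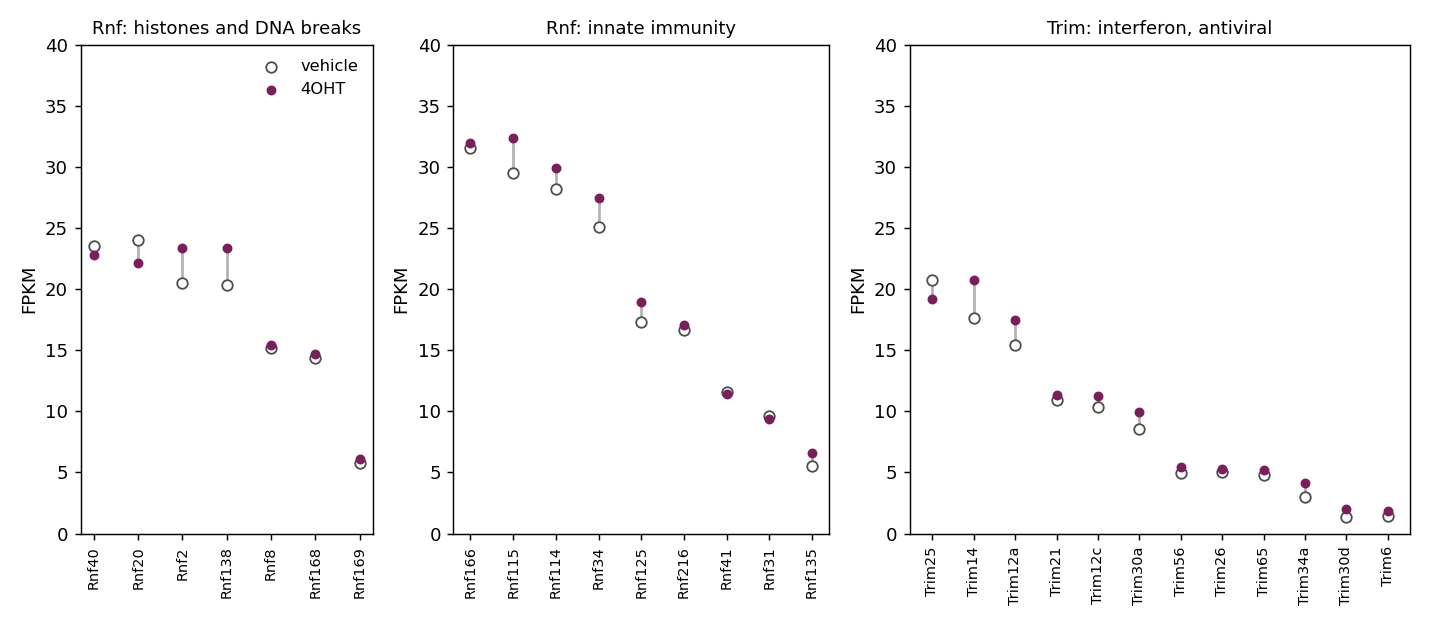
Level in FPKM (linear axis) in vehicle cells (open) and after 4OHT (filled) for the measured genes of 3 groups, joined by a line per gene and ordered by mean level: 7 Rnf genes for histones and DNA breaks, 9 Rnf genes of innate immunity and 12 interferon-linked and antiviral Trim genes. The 2 points of a gene lie close together in each panel, and 11 of the 12 Trim genes have the filled point above the open one.

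The promoters of this group are shown because 7 of its 12 genes with a RefSeq promoter held the interferon form (GAAA, any 2 bases, GAAA). Those 7 were Trim12a, Trim12c, Trim21, Trim26, Trim30a, Trim30d and Trim34a. The 3.44% over all promoters counts single promoters rather than genes. The group was also listed for its link to interferon and holds near copies, so the shares are not like for like. Stretches of 30 bases around 1 match per gene, 5′ to 3′ along the gene (GRCm38.p6), carry the match in capitals, written as its complement where it lies on the opposite strand.
Trim12a, chr7:104315466-104315495, minus strand: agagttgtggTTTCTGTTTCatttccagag
Trim12c, chr7:104353359-104353388, minus strand: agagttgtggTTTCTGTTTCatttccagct
Trim30a, chr7:104465210-104465239, minus strand: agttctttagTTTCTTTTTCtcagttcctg
Trim30d, chr7:104507871-104507900, minus strand: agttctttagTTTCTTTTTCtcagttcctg
Trim34a, chr7:104244457-104244486, plus strand: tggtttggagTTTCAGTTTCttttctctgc
Trim21, chr7:102565444-102565473, minus strand: agaggaaactGAAAGTGAAAtttggactgc
Trim26, chr17:36836976-36837005, plus strand: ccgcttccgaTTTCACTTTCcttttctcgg
The stretches of Trim30a and Trim30d are the same letter for letter, and those of Trim12a and Trim12c differ only at their ends. Trim21 and Trim26 each hold a second match that overlaps the one shown. Among the measured genes of the group, the 7 with a match had log2 ratios of 0.05 to 0.36 (median 0.17). The 3 with a promoter and no match had -0.11, 0.10 and 0.23. These ranges overlap, and Trim12a, Trim12c, Trim30a, Trim30d and Trim34a belong to the run of related genes described above. A link of the match to the values was not tested. No match of this form overlapped one to TTNNGCAA, which Trim12a, Trim12c and Trim26 also held.

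What could be called differed with the level. Between 5 and 20 FPKM the smallest difference that passed anywhere in the table was 1.41-fold, and the 39 tested members there had a median difference of 1.06-fold and a largest of 1.49-fold (Trim13). Between 20 and 100 FPKM the smallest was 1.39-fold, and the 36 tested members had a median of 1.08-fold. No smaller difference was called at these levels. At 100 FPKM and above, where 3 members were tested, 58.1% of differences of at least 1.5-fold passed (36 of 62), fewer than the 84.7% between 20 and 100 FPKM. The total number of reads is unknown. Among 1402 rows below 0.05 FPKM but above 0 in both conditions, the most frequent ratio of 4OHT to vehicle was 0.853, shared by 62 rows to 0.001 log2 units, with 24 rows at double and 11 at 0.5 times that ratio. Equal steps of this kind can come from single reads, and then the 4OHT sample would be 1.17 times as deep as the vehicle sample. Each value joins 2 replicates whose own depths are unknown, so this is a rough reading.

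The rest of the ubiquitin pathway differed little. Of 140 measured genes in the lists of ubiquitin, E1, E2, other ligase and deubiquitinase genes, 1 rose and 1 fell. Their median log2 ratio was 0.01, and 92.9% were within 1.25-fold. Over the whole series 5.91% of tested rows passed, and 82.6% of measured rows were within 1.25-fold. Dtx4, a RING ligase of the Deltex type that acts in Notch signalling, stood at 20.6 FPKM with vehicle and rose to 36.2 FPKM (authors' deposited table, q = 0.00165). Ube2a, an E2 that works with Rad18 and with Rnf20, stood at 79.3 FPKM and fell to 53.1 FPKM (q = 0.00911 there). Among 28 measured E2 genes Ube2a was the one that passed, and 10 had the higher value after 4OHT. None of 4 ubiquitin genes, 3 E1 genes, 15 cullin-RING genes (Rnf7 among them), 20 HECT ligases or 36 deubiquitinases passed. By log2 ratio with the pseudocount of 1 FPKM, the largest differences in the ubiquitin, E1, cullin-RING and deubiquitinase lists were those of Ubb (350 and 362 FPKM), Uba7, the E1 of the ubiquitin-like protein ISG15 (19.8 and 24.6 FPKM), Cul7 (4.77 and 5.98 FPKM) and Usp22 (23.0 and 29.6 FPKM).

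**Figure D5:**
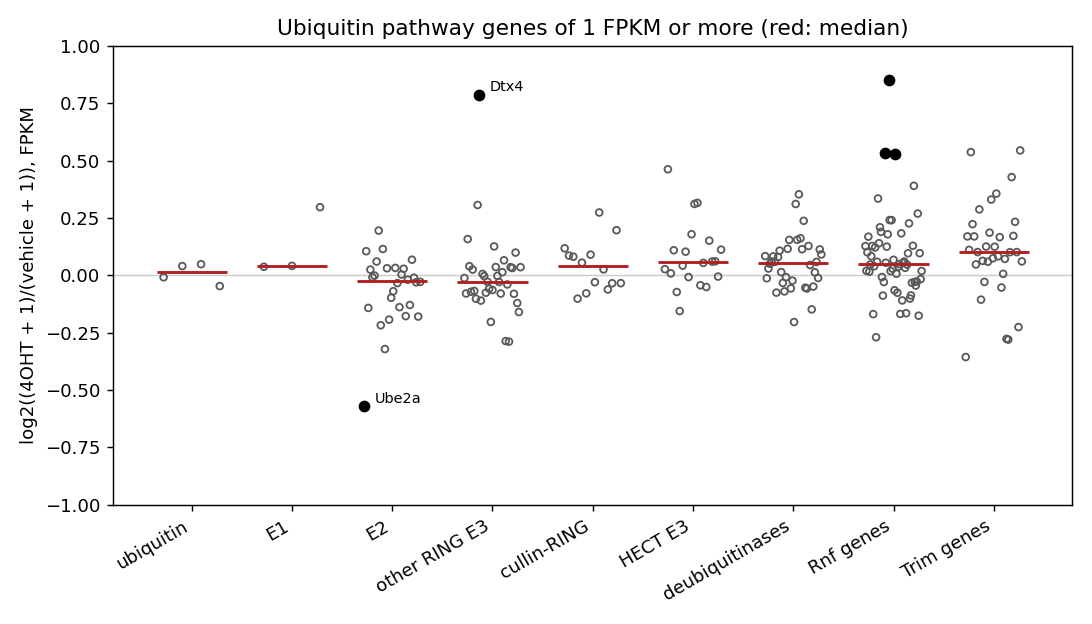
Log2 ratio of 4OHT to vehicle (pseudocount of 1 FPKM) for each measured gene of 7 ubiquitin pathway lists and of the Rnf and Trim families, with filled points for q under 0.05 and a red line at each median. Rnf7 is drawn with the Rnf genes, and outside the families the filled points are Dtx4 at 0.79 and Ube2a at -0.57.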

How the data were processed

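RNA from 2 samples was sequenced after an Illumina TruSeq preparation, per the labels' protocols. Cuffdiff 2.0.2, Bowtie2 2.0.0.7 and CASAVA 1.8.2 and the build mm9 appear in the submitters' processing notes, without roles. The annotation was not given in the sources used here. As deposited by the authors, the data are 1 table of 23309 rows with 1 value per gene and condition, taken as FPKM from the Cuffdiff form of its columns, and a p-value and q-value per row (11953 rows with status OK). No test was run here, since each group is 1 sample. Log2 ratios used a pseudocount of 1 FPKM, and members of at least 1 FPKM in the higher condition counted as measured. The members are set by name alone, but the families and the gene lists were chosen with earlier results of these data known, so they give no independent support. Named genes were every called member, the 5 largest rises and falls and the 3 highest levels per family, all measured genes of 5 lists and up to 4 of the others, and the called or most different gene of each pathway list; 3 genes of these lists and families are not reported here. Loci are those deposited, with 1 added to each start so that positions count from 1. Summaries were made in Python 3.11.15 with pandas 2.3.3 and tested on simulated data.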

Additional observations from a re-analysis of the deposited data

How the results depend on the processing

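The Rnf count of 3 was the same at a q under 0.10 and by a 1.5-fold difference, and 2 at a q under 0.01. A minimum of 1 FPKM in the higher condition could not remove the 3, which reach it after 4OHT. The Trim count of 0 became 2 at a q under 0.10 (Trim7 and Trim13) and 1 by a 1.5-fold difference among measured genes, which 7.44% of all such rows reached. That 1 was Trim7, which reached 1 FPKM only after 4OHT. The median log2 ratios kept their sign under each pseudocount, minimum and scaling tried. They ran from 0.04 to 0.07 for Rnf and 0.06 to 0.12 for Trim genes. Each moved by less than 0.1, a loose bound for medians of this size. Rescaling to an equal sum also shifts all other rows. The value after 4OHT was then higher in 56.0% of all measured rows, 72.9% of Rnf and 79.4% of Trim genes. Of 63 named members, 1 changed sign, Rnf7, on rescaling to an equal sum (-0.02 to 0.01). A pseudocount of 0.1 FPKM moved 7 log2 ratios by 0.1 or more and one of 5 FPKM moved 11, without a change of sign. With these the ratio of Rnf150 was 1.64 and 0.28 (0.85 with 1 FPKM), of Rnf144a 0.92 and 0.19 (0.53), and of Rnf180 0.83 and 0.20 (0.53). No symbol was in a joined row. The alternative that needs protein sequences was not run. No paired analysis was possible because each condition has 1 value per gene, and leaving out a replicate was not possible for the same reason.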

Other observations

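Rows near the genes singled out were read after their values were seen. Over all tested rows 5.91% passed in either direction, and a local effect was not tested. Within 400 kb of Rnf144a, which rose, lie 2 tested rows, the interferon-induced pair Rsad2 and Cmpk2. Rsad2 fell from 0.417 to 0.164 FPKM (q = 0.0466 in the authors' deposited table), and Cmpk2 had 2.08 FPKM with vehicle and 1.29 FPKM after 4OHT (q = 0.119 there). Within the same distance of Rnf150 none of 3 tested rows passed, and of Rnf180 none of 2.

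Near Trim7 and its neighbour Trim41 (16.6 and 16.7 FPKM) 1 of 11 tested rows passed, Ifi47, an interferon-inducible GTPase, which rose from 48.03 to 70.5 FPKM (q = 0.0256 in the authors' deposited table). Near Trim13 1 of 7 passed, Arl11, which fell from 76.0 to 33.4 FPKM (q = 0.00165 there), while Trim13 itself was higher after 4OHT without passing.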
